A study of Mus musculus with 9 samples.

Results

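The 9 genes described here belong to endothelial caveolae and their diaphragms, and were measured by RNA-seq in sorted endothelial cells of the fetal mouse heart. They were Plvap, Cav1, Cav2, Cavin1, Cavin2, Cavin3, Ehd2, Ehd4 and Mfsd2a, 9 of the 41214 rows of the expression table, chosen by name and matched through their Ensembl identifiers. All 9 were found, and 8 passed the filter on low counts and were tested, Mfsd2a being the exception. The cells came from ventricles of E17.5 embryos that carried Nes-Gfp(Tg/0) and Nes-CreER(Tg/0) together with the R26(tom/+) reporter, after 0.1 ug of tamoxifen at E15.5. All 3 populations therefore shared these alleles and this treatment, and all were sorted as dapi-, Ter119-, CD45-, CD31+ and GFP+ cells. The arterial population (3 libraries) was Emcn-low and Tomato+, and was enriched for arteries within the myocardium and for capillaries. The venous population (3 libraries) was Emcn-low, Tomato- and GFP-low, and was enriched for veins under the epicardium. The endocardial population (3 libraries) came from a gate described by CD31 and GFP, with no Emcn or Tomato condition given. Arterial and venous libraries together are called coronary below. The Nes promoter drives both GFP and CreER, so that only cells with Nes-Gfp signal were sampled. The replicate number is also the batch label, and the labels do not say whether replicates came from separate embryos or pools, so that p-values here refer only to library-to-library spread, part or all of which may be technical.

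Caveolae are flask-shaped pits of the plasma membrane and are abundant in the endothelium of continuous capillaries, including those of the heart. Caveolins insert into the inner leaflet, cavins form a coat around the pit, and Ehd2 sits at its neck and holds it at the surface. Plvap builds the thin diaphragms that close the necks of caveolae and the openings of fenestrated endothelium, whereas Mfsd2a, a lysophospholipid transporter, is known for keeping caveolar transcytosis low in brain endothelium.

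Libraries held 12750553 to 19474419 counts, and 17130 to 21221 genes had a count above 0. Endocardial replicate 1 stood apart from the other 2 endocardial libraries on the second principal component, at 73 against -19.5 and -29.2. It also had a count for 21101 genes against 17337 and 17130. The arterial libraries were spread on this component as well, with replicates 1 and 3 at 32.9 and 50 and replicate 2 at -16.1. They had a count for 21221, 19610 and 20359 genes in replicates 1, 2 and 3. Of 8 arterial markers, 7 were higher in arterial than in venous libraries, and all 6 endocardial markers were higher in endocardial libraries than in the log2 mean of both coronary populations (edgeR, adjusted p under 0.05). Against venous libraries alone 5 of the 6 were higher, the other being Tbx20, at 88.0 ± 10.6 CPM (counts scaled to one common library size; SD, n = 3) in endocardial and 135.6 ± 36.2 in venous libraries, which were all higher. The venous markers were less clear. Of these 4 genes, 2 were called higher in venous than in arterial libraries (Nr2f2 and Aplnr), while Vwf and Ephb4 were not called. Nr2f2 and Vwf were also called higher in endocardial libraries than in either coronary population. Of the 8 arterial markers, Bmx was called higher in endocardial libraries than in either coronary population. Gja4 was called higher there than in venous libraries and in the log2 coronary mean, and 4 of the 8 were called lower than in that mean. All 5 capillary markers were lower in endocardial than in coronary libraries. None of the 5 was called between arterial and venous libraries. Their summed level was 4081.3 to 4652.8 CPM in arterial, 3654.4 to 4773.5 in venous and 398.7 to 448.5 in endocardial libraries. The summed level of 6 lymphatic markers was 690.4 to 798.0 CPM in endocardial, 122.7 to 204.8 in venous and 84.5 to 112.8 in arterial libraries, with Ccl21a at 0 in the last. Of these 6, 4 were called higher in endocardial than in coronary libraries, while Flt4 and Pdpn were not called. Flt4, the most abundant of the 6 in coronary libraries, averaged 86.4 CPM in endocardial, 117.9 in venous and 86.6 in arterial libraries. In bulk libraries, fewer cells of a type and less RNA per cell cannot be told apart.

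Promoter sequences are shown for Cav1, Cav2 and Cavin2, because both caveolin genes differed between endocardial and coronary libraries and Cavin2 was not called, as described below. Each is the 250 bases before a RefSeq start (GRCm38.p6), in the direction of transcription. Capitals mark CCAAT (the CCAAT box) and GGGCGG (the GC box) on either strand.
Cav1 (chr6:17306085-17306334, plus strand): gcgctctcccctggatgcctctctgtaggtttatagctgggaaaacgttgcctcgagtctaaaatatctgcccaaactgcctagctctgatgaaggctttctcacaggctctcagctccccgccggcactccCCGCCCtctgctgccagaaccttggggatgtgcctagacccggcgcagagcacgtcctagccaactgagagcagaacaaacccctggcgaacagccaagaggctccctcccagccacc
Cav2 (chr6:17280935-17281184, plus strand): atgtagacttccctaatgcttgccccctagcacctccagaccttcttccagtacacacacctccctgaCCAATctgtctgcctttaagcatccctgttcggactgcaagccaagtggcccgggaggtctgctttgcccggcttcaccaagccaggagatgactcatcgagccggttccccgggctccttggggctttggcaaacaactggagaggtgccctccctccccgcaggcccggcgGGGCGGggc
Cavin2 (chr1:51288876-51289125, plus strand): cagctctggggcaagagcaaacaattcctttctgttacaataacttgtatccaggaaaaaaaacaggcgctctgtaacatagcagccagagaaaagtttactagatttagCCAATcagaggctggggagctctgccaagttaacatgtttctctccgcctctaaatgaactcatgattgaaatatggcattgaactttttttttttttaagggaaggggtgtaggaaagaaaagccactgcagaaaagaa
The windows of Cav1 and Cav2 each held 10 CpG dinucleotides, at a G and C content of 59.6% and 62.0%. The window of Cavin2 held 2 CpG at a G and C content of 40.4%. Over all 32817 windows of this length the medians were 6 CpG and 52.4%, so that the caveolin windows lay above them and that of Cavin2 below. A GC box was present for Cav1 and Cav2 and not for Cavin2, and 32.7% of all windows hold one. A CCAAT box was present for Cav2 and Cavin2 and not for Cav1, against 33.8% of all windows. Cav1 has another RefSeq start downstream, whose window is not shown and held 12 CpG and no GC box or CCAAT box. Windows of other members, not shown, did not divide in this way by call. That of Ehd4, which was not called, held 21 CpG at 61.2%, with a GC box and a CCAAT box. Each window of Cavin1 and that of Ehd2, which were called, held 12 CpG, a GC box and a CCAAT box. The untested Mfsd2a had 17 CpG at 61.6%, with a CCAAT box and no GC box. These matches describe letters only. Windows were found for 7 of the 9 genes, the others being Plvap and Cavin3.

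The main contrast in this gene set lay between endocardium and coronary endothelium, and it went in opposite directions for the diaphragm gene and those caveola genes that were called. Plvap was higher in endocardial libraries. The caveolins Cav1 and Cav2, the coat gene Cavin1 and the neck gene Ehd2 were lower there, and Cavin2, Cavin3 and Ehd4 were not called. With endocardial libraries set against the mean of both coronary populations on the log2 scale, 1 of 8 tested members was higher and 4 were lower, where 13.9% of all 17103 genes tested were called in either direction, 6.91% as higher and 7.0% as lower (edgeR quasi-likelihood test, Benjamini-Hochberg adjusted p under 0.05). The median log2 difference of the members was -0.75, against 0.08 over all genes.

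Taken separately, each coronary population differed from endocardium in the same 5 members. Arterial libraries were higher for 4 and lower for 1, with 11.7% of all genes called (5.92% higher and 5.75% lower), and the libraries did not overlap for 5 of 8 members, against 25.6% of all genes. Venous libraries were higher for 4 and lower for 1, with 10.2% of all genes called (5.81% higher and 4.44% lower), and did not overlap for 6 of 8, against 28.2%. These comparisons share the endocardial libraries, so that their values are given side by side and are not separate evidence. Between arterial and venous libraries none of the 8 members was called by edgeR, where 1.07% of all genes were. Without adjustment, 3 members (Plvap, Cav2 and Ehd4) fell under a p of 0.05, as 8.48% of all genes did, and DESeq2 called 1, Plvap. Arterial and venous libraries did not overlap for 4 of 8 members (Plvap, Cav2, Cavin2 and Ehd4), against 17.3% of all genes.

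**Figure D1:**
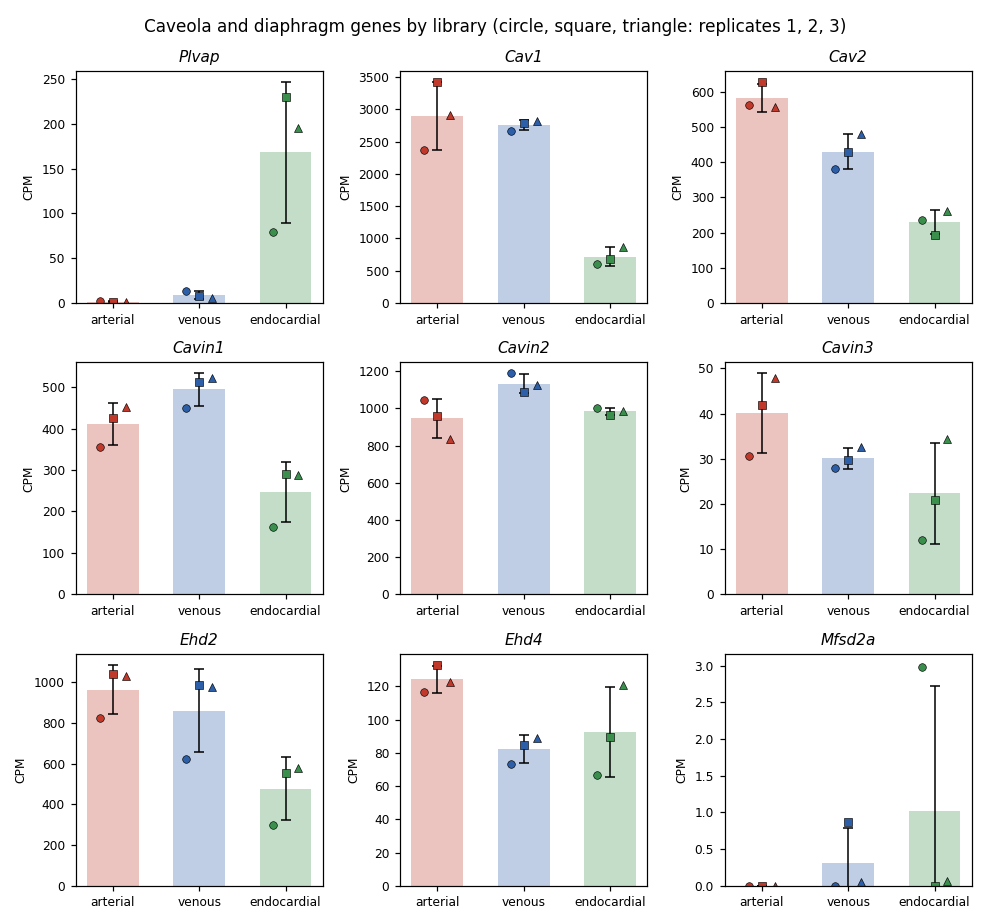
Level of each of the 9 genes in CPM (vertical axis from 0, with its own scale for each gene) in arterial, venous and endocardial libraries. Bars are means and error bars the SD over 3 libraries, cut at 0 where they would go below it, and the circle, square and triangle are replicates 1, 2 and 3; Plvap stands at 79.5 to 229.8 CPM in endocardial libraries, and Cav1 at 2370.6 to 3421.1 CPM in the 6 coronary libraries against 595.3 to 872.0 in the endocardial ones.

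Plvap (chromosome 8, 71497765 to 71511752, minus strand, GRCm38) had the largest log2 difference of the 8 tested members in each comparison. Its level was 79.5, 229.8 and 195.1 CPM in endocardial replicates 1, 2 and 3. It was 13.1, 7.84 and 4.92 CPM in the venous libraries and 1.7, 1.09 and 0.368 CPM in the arterial ones. The 3 populations did not overlap, and endocardial replicate 1, the lowest of its group, was still above every coronary library. Endocardial libraries were 158-fold above arterial libraries (arterial minus endocardial log2 -7.31 ± 0.72, adjusted p = 0.000235, edgeR). They were 19.5-fold above venous libraries (venous minus endocardial log2 -4.29 ± 0.60, adjusted p = 0.00239, edgeR). Both calls were kept under all 15 alternatives run. The arterial level rests on few reads, with counts of 23, 19 and 5, against 222, 127 and 96 in venous and 1041, 3189 and 2874 in endocardial libraries.

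The step in Plvap between venous and arterial libraries did not pass the test. The arterial mean was 1.05 ± 0.665 CPM and the venous mean 8.63 ± 4.16 CPM (SD, n = 3 each), with a log2 difference of -3.02 ± 0.64 and an adjusted p of 0.106 (edgeR). Arterial libraries were lower in all 3 batches, which follows from the lack of overlap and adds nothing to it. The adjusted p was 0.295 with the replicate number as a block. It was 0.0297 without endocardial replicate 1, 0.0433 with only these 2 populations in the fit, 0.000459 without a filter on low counts and 7.36e-08 with DESeq2. The call thus depended on the fit, while the log2 difference stayed between -3.5 and -2.59 with each library left out in turn.

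Plvap shares 1819 bases of its span with Gtpbp3, a gene of mitochondrial tRNA modification on the other strand. Gtpbp3 stood at 1.77 to 2.19 CPM in arterial libraries, 1.01 to 4.32 in venous and 0.577 to 4.13 in endocardial ones, which is of the order of the arterial level of Plvap. Whether counting used strand is not given in the sources used here. The expected counts of Plvap were whole in all 9 libraries, to within 1e-09. The shared bases are of gene spans, and whether they lie in exons was not examined. A part of Gtpbp3 reads in the arterial level of Plvap was not tested. The summed level of the 6 endocardial markers also ran in the order of Plvap, while Tbx20, 1 of the 6, was highest in venous libraries. The sum was 94.6 to 108.6 CPM in arterial libraries, 274.4 to 397.6 in venous and 3784.3 to 4509.0 in endocardial ones, with none of the 6 at 0 throughout a population. Their part in the level of Plvap was not tested.

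Cav1, the caveolin without which endothelial caveolae do not form (chromosome 6, 17306335 to 17341452, plus strand), was among the most abundant mRNAs. It ranked at percentile 99.9 of tested genes by CPM in arterial libraries, 99.9 in venous and 99.3 in endocardial ones. Its level was 2370.6, 3421.1 and 2911.2 CPM in arterial replicates 1, 2 and 3, 2661.6, 2783.2 and 2815.8 in venous and 595.3, 683.3 and 872.0 in endocardial ones. The coronary populations overlapped, and every endocardial library was below every coronary one. Cav1 was 4.05-fold higher in arterial than in endocardial libraries (log2 2.02 ± 0.17, adjusted p = 3.83e-07, edgeR). It was 3.84-fold higher in venous than in endocardial libraries (log2 1.94 ± 0.17, adjusted p = 9.73e-07, edgeR). Both calls were kept under all 15 alternatives run. Between arterial and venous libraries the log2 difference was 0.08 ± 0.16 (adjusted p = 0.971), and its sign turned without arterial replicate 2, to -0.11.

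Cav2, which assembles with Cav1 into mixed oligomers, ends 17219 bases before the start of Cav1 on the same strand (chromosome 6, 17281185 to 17289115, plus strand). It was present at 563.0, 629.2 and 558.3 CPM in arterial libraries, 381.2, 428.1 and 482.0 in venous and 234.7, 194.2 and 260.9 in endocardial ones. The 3 populations did not overlap and ran in the order arterial, venous, endocardial. The log2 difference from endocardial libraries was 1.34 ± 0.16 for arterial and 0.90 ± 0.16 for venous libraries (adjusted p = 1.66e-05 and 0.00102, edgeR), and both calls were kept under all 15 alternatives run. The step from venous to arterial libraries, 0.44 ± 0.16, was not called (adjusted p = 0.375), so that these neighbours in the order did not differ beyond the threshold. The antisense gene Gm15581, which spans both caveolin genes, had at most 1.11 CPM in any library.

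**Figure D2:**
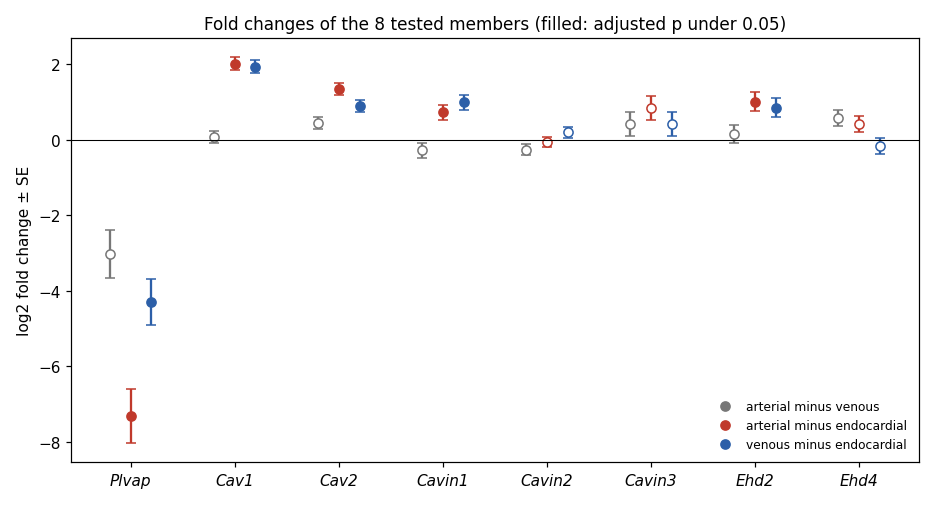
Log2 fold change (vertical axis) of the 8 tested members (horizontal axis) in each comparison of populations, with the SE of the edgeR fit as error bars and filled points for an adjusted p under 0.05. Plvap lies below 0 in both comparisons with endocardium (-7.31 and -4.29) and Cav1 above 0 (2.02 and 1.94).

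Of the cavins, the coat proteins, Cavin1 was called and Cavin2 and Cavin3 were not, and differences between the cavins were not tested. Cavin1, which caveolae of all tissues require (chromosome 11, 100956733 to 100970887, minus strand), had 354.4, 424.7 and 451.9 CPM in arterial libraries, 449.8, 512.1 and 521.3 in venous and 162.3, 289.4 and 288.4 in endocardial ones. All endocardial libraries were below all coronary ones, with replicate 1 the lowest, and the coronary populations overlapped. The log2 difference from endocardial libraries was 1.00 ± 0.20 for venous libraries (adjusted p = 0.00301, edgeR) and 0.73 ± 0.20 for arterial ones (adjusted p = 0.0225). The venous call was kept without endocardial replicate 1, at 0.78 (adjusted p = 0.00387). Between endocardial and coronary libraries it was -0.87 ± 0.18 (adjusted p = 0.00264), a call kept under all 14 alternatives run. The arterial call ended without endocardial replicate 1, at 0.51 (adjusted p = 0.0527), without arterial replicate 2 (0.0991) or 3 (0.0992), and with only the 2 populations in the fit (0.0588).

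Cavin2, which helps to bend and size the caveolar membrane (chromosome 1, 51289126 to 51302960, plus strand), was nearly level. It had 1045.3, 960.0 and 835.0 CPM in arterial libraries, 1188.4, 1087.3 and 1123.2 in venous and 999.3, 964.3 and 988.2 in endocardial ones. The endocardial libraries lay inside the arterial range, and the venous ones lay above both. The log2 difference from endocardial libraries was -0.06 ± 0.14 for arterial and 0.20 ± 0.14 for venous libraries (adjusted p = 0.912 and 0.429, edgeR). Between arterial and venous libraries it was -0.26 ± 0.14 (adjusted p = 0.649). The small value for arterial libraries turned sign with total count scaling (0.05) and without arterial replicate 3 (0.03).

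Cavin3, which links the coat to signalling (chromosome 7, 105480083 to 105482300, minus strand), was below Cavin1 and Cavin2 per length, at 24.1 ± 5.3 CPM per kb of exon in arterial libraries, 18.1 ± 1.39 in venous and 13.5 ± 6.73 in endocardial ones (SD, n = 3). Its level was 30.5, 42.0 and 47.8 CPM in arterial libraries, 27.9, 29.8 and 32.5 in venous and 12.1, 20.8 and 34.3 in endocardial ones. All 3 populations overlapped. The log2 difference between arterial and endocardial libraries, 0.84 ± 0.32, was not called (adjusted p = 0.116, edgeR). It was called with the replicate block (0.025), with total count scaling (0.0496), without a filter (0.0331) and without endocardial replicate 3 (0.0125). The endocardial minus coronary value, -0.63 ± 0.28 (adjusted p = 0.177), was called with the replicate block (0.0422) and without endocardial replicate 3 (0.02).

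Of the EHD ATPases, Ehd2, the form found at caveolar necks (chromosome 7, 15946958 to 15967567, minus strand), was lower in endocardium. It had 822.5, 1038.9 and 1027.6 CPM in arterial libraries, 623.6, 984.5 and 973.5 in venous and 300.1, 554.6 and 577.8 in endocardial ones. Replicate 1 was the lowest of each population, the coronary populations overlapped, and the endocardial libraries stayed below both. The log2 difference from endocardial libraries was 1.01 ± 0.25 for arterial and 0.85 ± 0.25 for venous libraries (adjusted p = 0.0167 and 0.0467, edgeR). The arterial call ended without arterial replicate 2 (0.102) or 3 (0.0999). The venous call ended under 9 of 15 alternatives, with adjusted p from 0.0514 without endocardial replicate 1 to 0.195 without venous replicate 2 or 3. Between endocardial and coronary libraries the value was -0.93 ± 0.22 (adjusted p = 0.0122), a call kept under all 14 alternatives run. Ehd2 had whole counts in 5 of 9 libraries, to within 1e-09, the others holding estimated counts that are not whole.

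Ehd4, which acts mainly in endosomal traffic (chromosome 2, 120089175 to 120154606, minus strand), was not called in any comparison. It had 116.8, 133.0 and 122.8 CPM in arterial libraries, 73.1, 85.0 and 88.8 in venous and 66.8, 89.7 and 120.8 in endocardial ones. The arterial libraries were all above the venous ones, and the endocardial libraries spread from below the venous range into the arterial one. The log2 difference between arterial and venous libraries was 0.59 ± 0.21 (adjusted p = 0.343, edgeR).

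Mfsd2a (chromosome 4, 122946850 to 122961188, minus strand) was at or near 0. It had no count in any arterial library, 0, 14 and 1 counts in venous replicates 1, 2 and 3, and 39, 0 and 1 counts in endocardial ones. A count of 0 allows up to 3 counts, or 0.173 to 0.221 CPM in the arterial libraries, which covers counting error only. Endocardial replicate 1, at 2.98 CPM, and venous replicate 2, at 0.864 CPM, were the libraries above 3 counts. No fold is given for this gene.

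Per exon length, the caveola genes made up a smaller and differently composed pool in endocardium. The summed level of Cav1, Cav2, Cavin1, Cavin2, Cavin3, Ehd2 and Ehd4 was 1506.3, 1876.1 and 1672.2 CPM per kb of exon in arterial libraries, 1558.4, 1666.6 and 1707.0 in venous and 698.2, 796.2 and 899.0 in endocardial ones. Cav1 made up 49.7% ± 3.69 of this sum in arterial libraries, 48.7% ± 0.86 in venous and 25.9% ± 1.92 in endocardial ones (SD, n = 3). Cavin2 made up 18.6% ± 3.57, 22.6% ± 2.03 and 40.8% ± 5.53 in the same order. In coronary libraries Cav1 was the most abundant of the 7 per length, and in endocardial libraries Cavin2 was, at 322.1 ± 5.86 CPM per kb against 208.2 ± 41.0 for Cav1.

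Ratios within a library do not depend on the scaling between libraries. The ratio of Cavin2 to Cav1 per exon length was 0.497, 0.316 and 0.323 in arterial libraries, 0.503, 0.44 and 0.45 in venous and 1.89, 1.59 and 1.28 in endocardial ones, above 1 in the last group alone. The ratio of Cav1 to Cavin1 was 6.71 to 8.39 in arterial libraries, 5.63 to 6.16 in venous and 2.46 to 3.82 in endocardial ones. The ratio of Cav1 to Cav2 was 4.08 to 5.27, 5.66 to 6.76 and 2.46 to 3.41 in the same order. Neither of these ratios overlapped between populations, but arterial libraries were highest for Cav1 to Cavin1 and venous libraries for Cav1 to Cav2. The ratio of Plvap to Cav1 was 0.232, 0.583 and 0.388 in endocardial replicates 1, 2 and 3 and at most 0.00855 in a coronary library. These ratios were computed with the fold changes known and were not tested.

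**Figure D3:**
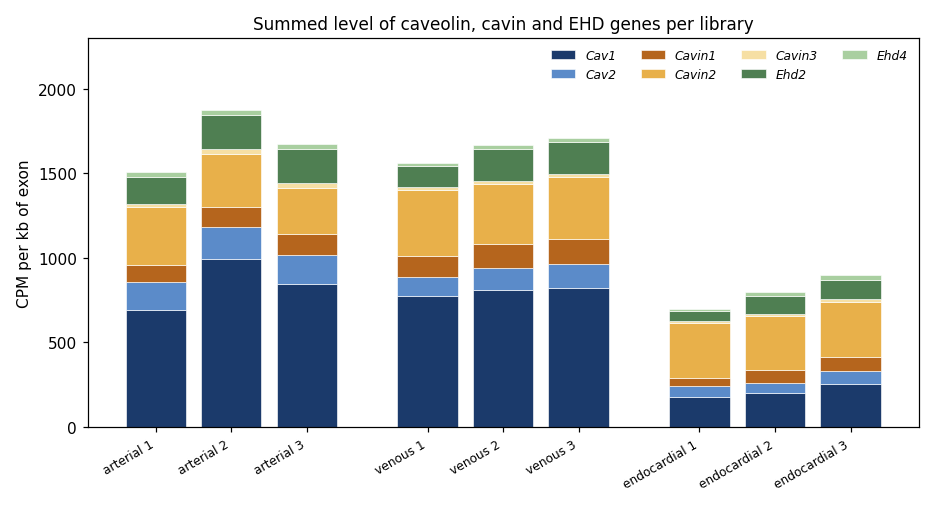
Summed level of 7 caveola genes in each of the 9 libraries, in CPM per kb of exon (vertical axis from 0), with each gene as a coloured segment of the bar. The endocardial bars reach 698.2 to 899.0 against 1506.3 to 1876.1 for the coronary bars, with a Cavin2 segment of similar height in all and a shorter Cav1 segment in endocardium.

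Markers of other cell types also differed between the populations. The summed level of 8 fibroblast markers was 100.2 to 117.1 CPM in arterial libraries, 1379.3 to 1612.6 in venous and 1611.8 to 1954.5 in endocardial ones. Between venous and endocardial libraries these 8 went in different directions. Col1a1 and Col3a1 were called higher in venous libraries, Lum, Pdgfra and Postn higher in endocardial ones, and 3 were not called. The 8 mural markers summed to 529.5 to 838.3 CPM in arterial libraries, 230.5 to 333.5 in venous and 75.2 to 145.4 in endocardial ones, with Abcc9 the most abundant of them in coronary libraries. Pdgfrb, at 25.1, 39.5 and 58.0 CPM in endocardial libraries, was called higher there than in venous libraries and in the log2 coronary mean. Against arterial libraries Pdgfrb was not called. The 8 cardiomyocyte markers summed to 261.4 to 371.1, 390.4 to 542.6 and 488.3 to 581.5 CPM in the same order, with Nppa at 0 in endocardial libraries, and Cav3 and Cavin4, the muscle forms of caveolin and cavin, reached at most 1.83 CPM in any library. The 6 erythroid and platelet markers summed to 367.0 to 867.4, 152.5 to 280.3 and 55.4 to 150.8 CPM, most of it from Hbb-bs. The 7 leukocyte markers summed to at most 11.2 CPM, with C1qa at 0 in venous and endocardial libraries and Cd3e in endocardial ones. The 7 general endothelial markers summed to 4991.1 to 6895.0, 4767.4 to 6178.9 and 3356.8 to 4410.3 CPM in that order. In endocardial against coronary libraries 3 of these 7 were lower (Pecam1, Cdh5 and Kdr), 1 was higher (Tek) and 3 were not called. The part of these differences in the levels of the members was not tested.

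Other genes of caveola formation, scission and anchoring formed a list of 17, of which 16 were tested. In endocardial against coronary libraries, 2 were higher, 3 lower and 11 not called, with a median log2 difference of 0.32 against 0.08 over all genes. Dynamins cut vesicles from the membrane, and Dnm3 had 5.04, 1.44 and 8.01 CPM in endocardial, 19.5, 34.2 and 31.5 in arterial and 23.9, 37.1 and 30.7 in venous libraries. All endocardial libraries were below all coronary ones (log2 -2.60 ± 0.45, adjusted p = 0.00123, edgeR). Dnm2 was lower in endocardium as well, by a log2 difference of -0.78 ± 0.22 (adjusted p = 0.0225), a call that ended without arterial replicate 2 (0.0566) or endocardial replicate 1 (0.0637). Between arterial and venous libraries no gene of this list was called by edgeR or DESeq2, while in edgeR 2 of 16 fell under 0.05 without adjustment, against 8.48% of all genes.

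The intersectins, scaffolds of endocytosis, went in opposite directions. Itsn1 had 93.4, 90.2 and 100.3 CPM in endocardial, 45.5, 46.9 and 30.4 in arterial and 62.6, 54.8 and 51.4 in venous libraries (log2 0.98 ± 0.17, adjusted p = 0.000627, edgeR). Itsn2 had 147.3, 105.6 and 112.4 CPM in endocardial, 281.8, 251.6 and 227.6 in arterial and 173.4, 172.9 and 249.3 in venous libraries (log2 -0.88 ± 0.17, adjusted p = 0.00162, edgeR). For Itsn1 every endocardial library was above every coronary one, and for Itsn2 every endocardial library was below. Ehd3, an EHD form of endosomal traffic, was higher in endocardium at 7.41 to 10.2 CPM (log2 1.98 ± 0.56, adjusted p = 0.0239), with an overlap at venous replicate 1 (8.28 CPM). Its call ended without endocardial replicate 2 (0.0741) or 3 (0.0963) and without venous replicate 2 (0.0578) or 3 (0.07). The uncalled genes with the smallest p were Pacsin2, which bends membrane at caveolae (endocardial minus coronary -0.53, adjusted p = 0.0687), Ror1 and Pacsin3.

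Receptors and carriers of endothelial uptake formed a list of 13, all tested. In endocardial against coronary libraries, 2 were higher, 5 lower and 6 not called, with a median log2 difference of -0.82 against 0.08 over all genes. Cd36, a fatty acid transporter, had 293.0, 238.7 and 264.5 CPM in endocardial, 1887.1, 2741.3 and 2277.1 in arterial and 1802.6, 2046.1 and 2736.6 in venous libraries. It was 8.47-fold lower in endocardium (log2 -3.08 ± 0.18, adjusted p = 3.47e-09, edgeR), and it is also one of the 5 capillary markers, all of which were lower there. Gpihbp1, which anchors lipoprotein lipase in capillaries, was lower by a log2 difference of -3.13 ± 0.38 (adjusted p = 0.000188). The water channel gene Aqp1 gave -1.41 ± 0.19 (adjusted p = 5.91e-05). The transferrin receptor gene Tfrc gave -0.82 ± 0.24 (adjusted p = 0.0292), a call that ended with 7 of the 9 libraries left out in turn, at adjusted p up to 0.103.

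Fcgrt, the neonatal Fc receptor that carries IgG and albumin across cells, was higher in endocardium. It had 31.7, 60.2 and 46.8 CPM in endocardial, 10.4, 14.9 and 12.9 in venous and 4.86, 4.61 and 2.13 in arterial libraries, without overlap, in the same order as Plvap. The log2 difference was 2.72 ± 0.28 between endocardial and coronary libraries (adjusted p = 3.45e-06, edgeR) and -1.71 ± 0.36 between arterial and venous ones (adjusted p = 0.0242). The second call ended without arterial replicate 3 (0.0975), venous replicate 2 (0.0708) or 3 (0.0549), and with only the 2 populations in the fit (0.0863). The insulin receptor gene Insr was higher in endocardium by 0.77 ± 0.16 (adjusted p = 0.00236). The uncalled genes with the smallest p were Lrp1, Scarb1 and Acvrl1. Scarb1, a lipoprotein receptor, gave -0.85 ± 0.28 between endocardial and coronary libraries (adjusted p = 0.0646, and 0.00296 with the replicate block). Acvrl1, a BMP receptor that also takes up LDL, gave -1.11 ± 0.35 (adjusted p = 0.0618, and 0.000544 with the replicate block).

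Because Mfsd2a is known from the blood-brain barrier, 13 other genes of that barrier were followed, and all were tested. In endocardial against coronary libraries, 3 were higher, 2 lower and 8 not called, with a median log2 difference of 0.62 against 0.08 over all genes. The efflux pump gene Abcb1a had 18.4, 9.3 and 7.94 CPM in endocardial, 108.2, 133.3 and 143.7 in arterial and 62.9, 50.9 and 73.3 in venous libraries, without overlap (log2 -2.91 ± 0.28, adjusted p = 1.73e-06, edgeR). Abcg2, another efflux pump gene, was lower in endocardium as well, by -1.67 ± 0.14 (adjusted p = 4.02e-07). Apcdd1, a Wnt pathway gene, was higher in endocardium at 17.4 to 25.7 CPM against 1.25 to 6.45 in coronary libraries (2.77 ± 0.31, adjusted p = 7.98e-06). Lsr, a gene of tricellular junctions, was higher at 16.1 to 26.5 CPM against 0.147 to 5.86 (3.18 ± 0.58, adjusted p = 0.0019). Spock2, a matrix proteoglycan gene, was higher at 8.08 to 9.32 CPM against 0.809 to 4.55 (1.99 ± 0.54, adjusted p = 0.0195), a call that ended with 5 of the 9 libraries left out in turn.

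Between arterial and venous libraries 1 gene of the barrier list was called, Apcdd1, lower in arterial libraries by a log2 difference of -1.91 ± 0.40 (adjusted p = 0.0231, edgeR). That call ended when any 1 of the 6 coronary libraries was left out, at adjusted p up to 0.0859, and with only the 2 populations in the fit (0.143). Abcb1a did not overlap between these populations, with a log2 difference of 1.04 ± 0.27 that was not called (adjusted p = 0.112). It was called with DESeq2 (0.0251), without a filter (0.000878), without endocardial replicate 1 (0.00617) and with only the 2 populations in the fit (0.0192). Cldn5, the main claudin of endothelial junctions, had 3.74, 14.9 and 22.0 CPM in endocardial libraries and 30.4 to 90.1 CPM in coronary ones, without overlap. Its log2 difference of -2.10 ± 0.60 was not called (adjusted p = 0.0619), and was called with the replicate block (0.00278), with DESeq2 (1.83e-05), with total count scaling (0.0396) and without endocardial replicate 1 (0.0222). With Axin2 and Slc16a1 it made up the uncalled genes with the smallest p.

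**Figure D4:**
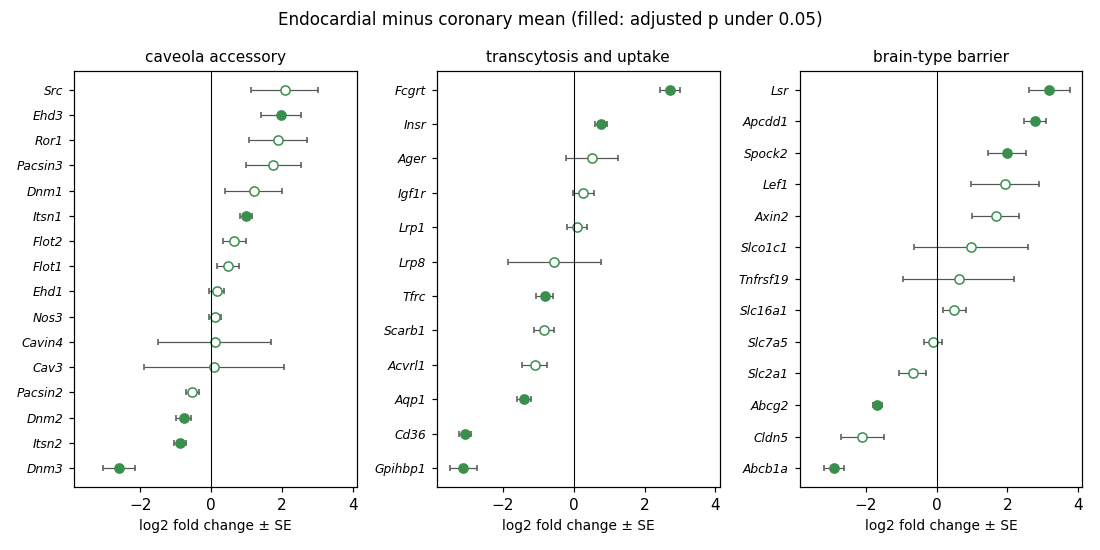
Log2 fold change of endocardial libraries against the coronary mean (horizontal axis) for tested genes of the 3 lists, one panel a list, with the SE of the edgeR fit as error bars and filled points for an adjusted p under 0.05. The filled points run from -3.13 (Gpihbp1) to 3.18 (Lsr).

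The genes whose pattern was most like those of Plvap and Cav1 were sought among 8755 protein-coding genes whose log2 CPM averaged at least 3, by Pearson's r of log2(CPM + 1) over the 9 libraries. For Plvap they were Mfap2 (r = 0.995), a microfibril gene, Tmem64 (0.993), Fgl2 (0.992), a fibrinogen-like gene, and Apoe (0.99), which encodes apolipoprotein E. Apoe had 229.4 to 585.6 CPM in endocardial, 26.7 to 30.1 in venous and 5.87 to 6.78 in arterial libraries. For Cav1 they were Etl4 (0.997), Coro2b (0.987), an actin-binding coronin gene, Wt1 (0.987) and Cd109 (0.986). Wt1, a transcription factor gene that is also on the epicardial marker list, had 178.1 to 203.8 CPM in arterial libraries, 136.5 to 157.8 in venous and 17.6 to 23.7 in endocardial ones. The other epicardial markers had at most 4.11 CPM for Upk3b, Msln and Upk1b and 11.3 CPM for Krt19, which was called higher in venous than in endocardial libraries. All of these values rest on the same 9 libraries in 3 populations and are a description.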

How the data were processed

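RNA was sequenced from 9 libraries of sorted mouse cardiac endothelium, 3 per population. Per the submitters' processing notes the tools included CASAVA 1.8.2, cutadapt 1.3 and RSEM 1.2.3 with the build GRCm38; the sources used here do not give the aligner or strandedness. The authors deposited expected counts per Ensembl gene (41214 rows), of which 45.5% of values above 0 were not whole (tolerance 1e-09); these were rounded before testing. Symbols and exon lengths came from GENCODE M21 (97.67% of rows matched). The tests used edgeR 4.0.16 in R 4.3.3 (quasi-likelihood, robust, TMM scaling, filterByExpr with a minimum count of 10), with all 9 libraries in 1 fit, no block, and Benjamini-Hochberg adjustment over 17103 genes at 0.05. CPM uses TMM-scaled library sizes, and SE is the log2 difference divided by the square root of F. Data were also simulated for arterial against venous libraries, with 15837 genes tested and a change given to a small random part of them. Of the changed genes, 9.38% at 2-fold and 46.8% at 4-fold were recovered. They were drawn without regard to level, so that these shares are not those of single members. Same-numbered libraries carry 1 batch label; correlations of their deviations were 0.15 to 0.227, 0.0927 to 0.161 and -0.149 to 0.0952 for numbers 1, 2 and 3. Alternatives were DESeq2 1.42.0, other scalings, no filter, a replicate block, each library left out, and fits of 2 populations. Named genes were the 9 members, list genes called in a comparison with the 3 uncalled genes of smallest p per list, and 4 genes of most similar pattern for Plvap and Cav1. Members and lists were chosen with earlier results of these data known. Some genes of the lists are counted but not reported here by name or plotted.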

Additional observations from a re-analysis of the deposited data

How the results depend on the processing

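Of 472 values of the 8 tested members under alternatives, 441 kept direction and side of the threshold, 6 stayed uncalled with another sign, 15 lost a call and 10 gained one. In arterial against venous libraries, 183 genes were called, against 369 with DESeq2, 439 without a filter on low counts, and 120 (without venous replicate 1) to 225 with each library left out. The members called there were 0, but 1 with DESeq2, 1 without a filter, 1 with only the 2 populations in the fit, and 0 to 1 with each library left out, always Plvap. In arterial against endocardial libraries 5 members were called, and 3 (without arterial replicate 2 or 3) to 6 with each library left out. In venous against endocardial libraries 1753 genes were called, and 1130 (without venous replicate 3) to 1871 with each library left out. The cause was not tested. With the replicate block, 225, 2312, 2097 and 2722 genes were called, against 183, 1996, 1753 and 2379 without it, for arterial minus venous, arterial minus endocardial, venous minus endocardial and endocardial minus coronary libraries. The members called with the block were 0, 6, 5 and 6, the added one being Cavin3. Among the genes named, the block also ended the venous to endocardial call of Tfrc (adjusted p = 0.054), gave calls to Dnm2 (arterial minus endocardial, 0.0183), Scarb1, Acvrl1 and Cldn5, and changed no other call. Total count scaling moved the median log2 difference of all genes between arterial and endocardial libraries by 0.1. The values of Plvap in arterial libraries and of Mfsd2a in all libraries rest on few counts, and the part of depth in this was not tested.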
